A study of Mus musculus with 9 samples.

Results

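The mitochondrial respiratory chain and ATP synthase are built from 5 multi-subunit complexes, and most of their subunits are encoded in the nucleus. The genes described here are the nuclear genes of these subunits in CH12F3, a B-lymphoma line of mouse origin used to study immunoglobulin class switching. They were chosen by symbol (the Nduf, Sdh, Uqcr, Cyc1, Cox4 to Cox8 and Atp5 names, without pseudogene symbols) and by a mean of at least 10 counts over the 9 libraries. Of 105 symbols that matched among the 45361 rows of the count table, 13 were pseudogene symbols and 81 of the other 92 reached the mean, which leaves 11 under it, 8 of them at 0 counts in every library. Just inside the threshold stood Cox7a1 with a mean of 68 counts, and just outside stood Ndufa4l2 with 6.33 and Cox4i2 with 2 counts. The 81 genes comprised 37 of complex I, 4 of complex II, 9 of complex III, 14 of complex IV (Ndufa4 is placed there, since its protein is a complex IV subunit) and 17 of complex V. A few carry a subunit's name without being a classical subunit: the protein of Cox7a2l, for example, helps to join complexes into supercomplexes.

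All cells carried a Ligase4 knockout, which removes the ligase of classical non-homologous end joining, and all were stimulated for 24 h with TGF-β, IL-4 and anti-CD40, which make these cells switch class. The 3 groups of 3 libraries differed in what was added: DMSO as the vehicle, tazemetostat, or valemetostat. Both compounds are inhibitors of the H3K27 methyltransferase EZH2, and valemetostat also inhibits its relative EZH1. The labels used here give neither doses nor the length of exposure to the compounds. The labels do not say whether libraries of a group came from separate cultures, so the p-values measure only the spread between libraries, which may be technical, and the knockout cells cannot stand for repair-proficient cells. Poly(A) RNA was sequenced in pairs of reads, and the 9 libraries held from 34080504 to 46675110 counts. Markers of B cells were present in every library (Pax5 at 109 to 152 CPM, counts scaled to the library total). The 8 B cell markers summed to 3086 to 3333 CPM with DMSO, 3509 to 3546 with tazemetostat and 3620 to 3792 with valemetostat. Of the 8, 5 were called higher with tazemetostat and 4 with valemetostat, and 0 lower, where 19.9% and 20.5% of all genes tested were called higher. The part of this difference in the results was not tested. Each of 6 T cell markers stayed under 1 CPM, and the 6 stromal and epithelial markers summed to 0.728 to 1.26 CPM with DMSO, 1.38 to 2.71 with tazemetostat and 0.805 to 1.68 with valemetostat. Of these Pecam1 was the highest, at 0.46 to 1.93 CPM, Col1a1 stood at 0.0842 to 0.564 and Col1a2 at 0. Of the 2 that passed the filter neither was called, and the part of these markers in the results was not tested. The 6 myeloid markers summed to 30.1 to 33.9 CPM with DMSO, 29.1 to 33.6 with tazemetostat and 27.4 to 30.9 with valemetostat. With each compound 2 of them were called higher (Lyz2 and Adgre1) and 1 lower (Csf1r), and the part of such cells or genes in the results below was not tested.

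As background, complexes I and II feed electrons from NADH and succinate to ubiquinone, complex III passes them to cytochrome c, and complex IV passes them to oxygen. Complexes I, III and IV pump protons across the inner membrane, and complex V, the ATP synthase, uses the returning protons to make ATP. Many of the subunits are small proteins with short mRNAs. Transcription factors such as NRF1, the ETS-family factor GABP and YY1 are known to bind the promoters of many of these genes, and resting B cells raise their mitochondrial activity when they are stimulated.

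The 250 bases before the RefSeq transcription start (build GRCm38.p6) were found for 66 of the 81 genes. They are printed for 4 genes that were called higher with both compounds on the counts: Uqcrh and Ndufb7, whose windows hold an ETS match close to the start, Sdhd, whose window holds both kinds of match, and Cox7c, whose window holds neither. Capitals mark a match to GCGCA and GCGC with 1 base between them (the NRF1 letters) or CCGGAAG (the ETS letters), searched on both strands, so that CTTCCGG is a match on the opposite strand.
Uqcrh, chr4:116075071-116075320, minus strand: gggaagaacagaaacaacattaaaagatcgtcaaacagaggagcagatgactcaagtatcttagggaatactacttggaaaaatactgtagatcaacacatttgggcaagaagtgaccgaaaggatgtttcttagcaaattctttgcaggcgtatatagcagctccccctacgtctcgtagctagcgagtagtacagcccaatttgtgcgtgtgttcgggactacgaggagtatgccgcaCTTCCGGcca
Ndufb7, chr8:83566508-83566757, plus strand: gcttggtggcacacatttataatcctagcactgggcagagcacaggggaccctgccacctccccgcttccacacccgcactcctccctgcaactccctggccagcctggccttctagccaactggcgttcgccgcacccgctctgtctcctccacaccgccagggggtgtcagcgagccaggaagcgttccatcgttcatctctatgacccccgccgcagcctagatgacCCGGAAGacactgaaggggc
Sdhd, chr9:50603850-50604099, minus strand: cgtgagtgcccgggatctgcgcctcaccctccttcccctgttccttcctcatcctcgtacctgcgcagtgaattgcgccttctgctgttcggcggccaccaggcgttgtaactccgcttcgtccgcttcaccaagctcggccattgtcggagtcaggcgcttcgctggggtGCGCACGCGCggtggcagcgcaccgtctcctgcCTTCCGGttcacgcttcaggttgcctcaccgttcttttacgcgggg
Cox7c, chr13:86046796-86047045, minus strand: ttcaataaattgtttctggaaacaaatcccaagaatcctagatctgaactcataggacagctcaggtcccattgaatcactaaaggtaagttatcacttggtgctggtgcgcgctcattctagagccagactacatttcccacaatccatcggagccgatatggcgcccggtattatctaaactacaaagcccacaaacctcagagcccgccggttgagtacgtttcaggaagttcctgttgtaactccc

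Over all 66 windows, 13 (19.7%) held the NRF1 letters, against 4.23% of the 27025 genes with a window in the same RefSeq table. These 27025 take in genes too low in these cells to be tested, and shares among expressed genes alone were not taken. The ETS letters were found in 12 (18.2%), against 7.83%, and the YY1 letters AANATGGC in 6 (9.09%), against 4.49%. The SP1 letters GGGCGG were found in 23 (34.8%), against 35.4%. With only the first window of each gene, NRF1 stood at 12 (18.2%, against 3.86%) and ETS at 11 (16.7%, against 7.05%). YY1 then stood at 4 (6.06%, against 3.93%) and SP1 at 23 (34.8%, against 32.9%). The 22 genes with an NRF1 or ETS match had a median log2 fold change of 0.19 with tazemetostat and 0.21 with valemetostat. The 44 genes without one had 0.20 and 0.22. The median transcript length was 670 nt with a match and 992 nt without, so these groups are not alike in length. Among these, 14 with a match and 25 without were called higher with tazemetostat, and 15 and 35 with valemetostat. A match of letters is a description of the sequence and not a bound site.

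The subunit genes were among the more abundant transcripts of these cells. Their median level, averaged over the 9 libraries, was 268 TPM (a unit that is per length of transcript and so can be compared between genes), against 15.1 for all 12580 genes tested. The median TPM level was 179 for complex I, 182 for complex II, 392 for complex III, 446 for complex IV and 510 for complex V. Atp5b, the catalytic beta subunit of the ATP synthase, had the highest level, at 3513 ± 103 TPM with DMSO, 3455 ± 69 with tazemetostat and 3292 ± 78.9 with valemetostat (mean ± SD, n = 3). Cox7a1, the heart and muscle form of a small complex IV subunit, had the lowest, at 13.2 ± 4.4, 19.1 ± 3.56 and 22.6 ± 5.84 TPM. Within complex I the TPM level ran from 40.5 for Ndufb4 to 444 for Ndufb8, both accessory subunits of the membrane arm, and within complex II only from 123 for Sdhc to 202 for Sdhd, the pair that anchors succinate dehydrogenase in the membrane. Within complex III it ran from 207 for Uqcrfs1, the Rieske iron-sulfur protein, to 1635 for Uqcr10, a small subunit.

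**Figure D1:**
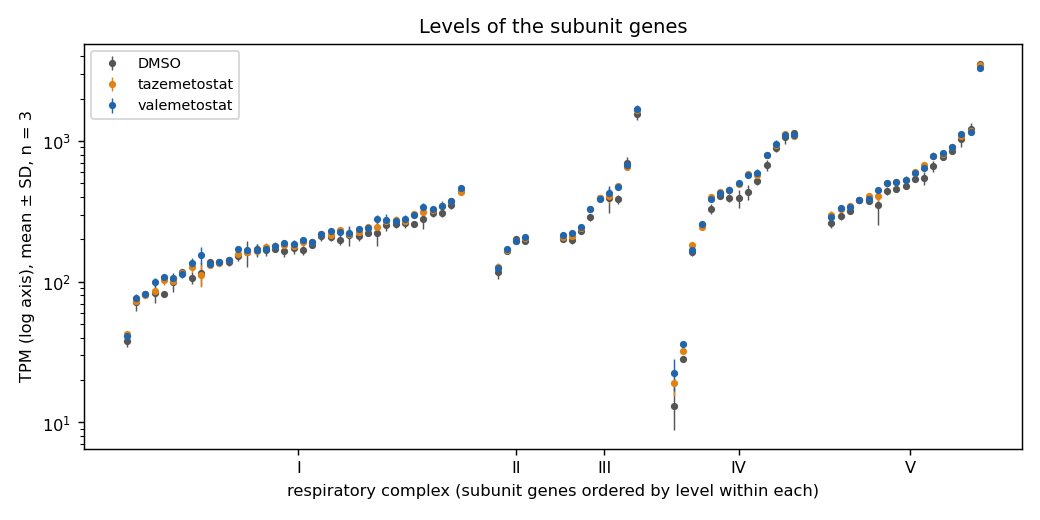
Each point is the mean TPM (log axis) of 1 subunit gene in 1 group, with bars for ± SD of 3 libraries, and the genes are ordered by level within each respiratory complex. The levels within complex IV run from 18.3 TPM (Cox7a1) to 1107 TPM (Cox4i1), and the 3 groups lie close together at nearly all genes.

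The summed level of the 81 genes was 32640, 29440 and 31270 TPM in the DMSO libraries. It was 32640, 32710 and 34140 TPM with tazemetostat and 32890, 34170 and 32910 TPM with valemetostat. The group means were 31120 ± 1606, 33160 ± 847 and 33320 ± 733 TPM (SD, n = 3). All 6 libraries of treated cells lay above DMSO 2 and DMSO 3, while 1 tazemetostat library lay at the level of DMSO 1. As a share of all counts, the genes made up 1.28 ± 0.051% with DMSO, 1.41 ± 0.0432% with tazemetostat and 1.43 ± 0.0364% with valemetostat.

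Tested gene by gene on the counts, most subunit genes were higher with each compound, by small amounts. With tazemetostat 50 of the 81 genes were called higher and 0 lower (edgeR's quasi-likelihood test, Benjamini-Hochberg adjusted p under 0.05 over 12580 genes), against a background of 19.9% of all genes tested called higher and 18.2% lower (38.1% in either direction). With valemetostat 61 were called higher and 0 lower, against 20.5% and 18.7% of all genes (39.2% in either direction). The count was 48 with both compounds, 2 with tazemetostat alone (Ndufb4 and Cox7b), 13 with valemetostat alone and 18 with neither. These comparisons share the DMSO libraries. The median log2 fold change was 0.18 with tazemetostat and 0.21 with valemetostat, beside 0.00 and 0.01 over all genes tested. The fold change was above 0 for all 81 genes with both compounds in this fit, but for only 67 with each compound after an offset for transcript length and GC content, and for 68 and 71 on TPM. In 46 genes the 3 tazemetostat libraries all lay above the 3 DMSO libraries, and in 56 genes the valemetostat libraries did, where 24.1% and 24.8% of all genes did so. In bulk RNA, fewer cells with a transcript and less of it per cell cannot be told apart.

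Transcript length moved with these differences. The median length of the principal transcript was 861 nt for the subunit genes and 2990 nt for all genes tested. Over the 81 genes the Spearman correlation of the log2 fold change with log2 length was -0.50 with tazemetostat and -0.53 with valemetostat, a description over genes that share the same libraries. The 3319 other genes of 528 to 2020 nt, the span between the 10th and 90th percentile of the subunit genes, were called higher in 23.7% of cases with tazemetostat and 26.4% with valemetostat, with median log2 fold changes of 0.07 and 0.09. For the 1035 of them within the same span of expression level, the shares were 31.7% and 35.1%. The 8936 longer genes had medians of -0.04 with each compound. The subunit genes, called higher in 61.7% and 75.3%, had medians 0.11 and 0.12 above those of the other short genes. This set is not matched in length: its median was 1397 nt, and that of its like-level subset 1484 nt, against 861 nt for the subunit genes.

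Binned by length, the subunit genes lay above the other genes in every bin, and least so in the median under 600 nt. Here the other genes are those at or above the 10th percentile of the subunit genes' expression level. Under 600 nt, 68.4% of 19 subunit genes and 53.3% of 45 other genes were called higher with tazemetostat, with median log2 fold changes of 0.23 and 0.20. From there to below 800 nt the shares were 73.7% of 19 and 52.3% of 86 genes, with medians of 0.25 and 0.155. Below 1200 nt they were 52.9% of 17 and 43.8% of 281 genes, with medians of 0.205 and 0.125. Below 2000 nt they were 52.9% of 17 and 31.6% of 823 genes, with medians of 0.13 and 0.06, and from 2000 nt 55.6% of 9 and 14.7% of 4440 genes, with medians of 0.125 and -0.06. Each bin holds fewer than 20 subunit genes. With valemetostat the same held, from 84.2% against 64.4% under 600 nt to 55.6% against 13.9% from 2000 nt. The longest bin is uncertain. For Ndufb2, Ndufv3, Atp5g1 and Atp5md the deposited counts per TPM lay at -4.64 to -2.52 log2 units from the median gene. Sdhc, of 3171 nt, lay at -0.93, where Sdha, of 2900 nt, lay at 0.27. Apart from Sdha, the annotated length of these genes may not be that of the transcripts counted.

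**Figure D2:**
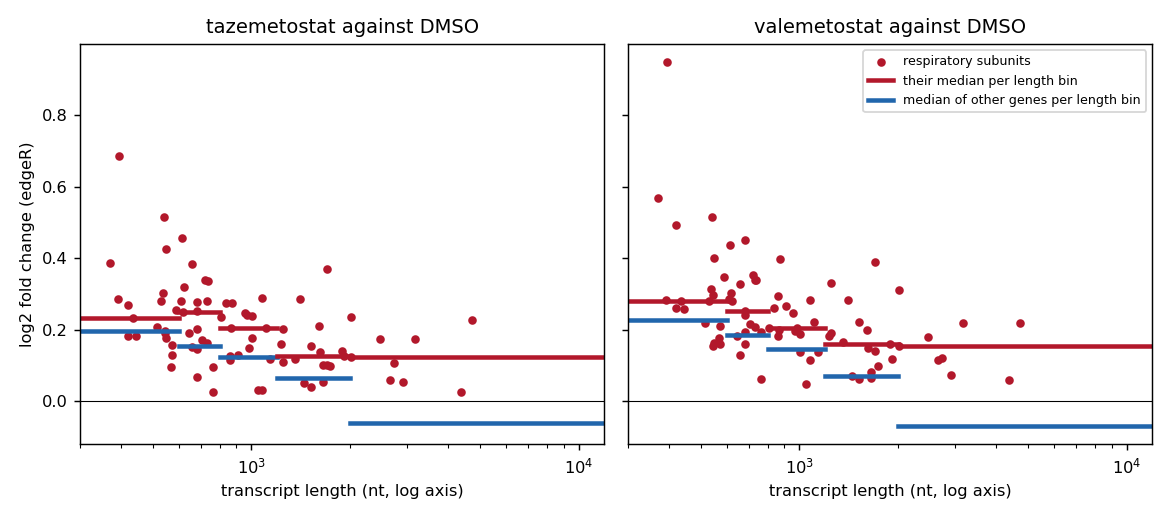
Each red point is the log2 fold change of 1 subunit gene (edgeR, counts) against its annotated transcript length in nt (log axis), with tazemetostat on the left and valemetostat on the right. Horizontal lines are medians per length bin for the subunit genes (red) and for other genes of like expression (blue): both fall with length, and the red line lies above the blue one in each bin.

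An offset that takes out the dependence of each library on transcript length and GC content left much smaller differences. The subunit genes were among the genes to which this offset was fitted. It may therefore have taken out part of their own difference, which was not tested. With it, 17 of 81 genes were called higher and 2 lower with tazemetostat, and 21 higher and 1 lower with valemetostat, with median log2 fold changes of 0.06 and 0.08. In the same fit 19.3% and 19.0% of all genes tested were called higher and 19.2% and 19.6% lower, so the shares of subunit genes called higher, 21.0% and 25.9%, were near the background. The shares called lower were 2.47% and 1.23%. Tested on the authors' TPM, 19 genes were called higher with tazemetostat and 21 with valemetostat, and 0 lower (limma-trend on log2(TPM + 1), adjusted p under 0.05). There 9.36% and 9.47% of all genes were called higher and 15.5% and 16.8% lower. The medians were 0.09 and 0.11 beside -0.07 and -0.07 over all genes. TPM are per length, but a difference by length between the groups remained in them. Other short genes had medians of -0.01 and 0.01 there, and longer genes -0.10 with each compound. The part of transcript length in the differences on the counts was not tested beyond these fits.

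The libraries of a group did not all lie together. The median deviation of the 81 genes from their own mean over the 9 libraries was -0.09, -0.26 and -0.08 in DMSO 1, 2 and 3 (log2 CPM). It was 0.01, 0.03 and 0.12 in the tazemetostat libraries and 0.05, 0.13 and 0.07 in the valemetostat libraries. DMSO 2 was lowest and every DMSO library lay below every treated library. Other short genes moved in the same order within DMSO, at -0.04, -0.10 and -0.03, and the longer genes in the opposite direction, at 0.02, 0.04 and 0.01. Genes with cytosolic ribosomal protein symbols stood at -0.10, -0.20 and -0.04. Without DMSO 2, 30 genes were called higher with tazemetostat and 44 with valemetostat, with medians of 0.14 and 0.17. Without tazemetostat 3, the highest of its group, 35 were.

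**Figure D3:**
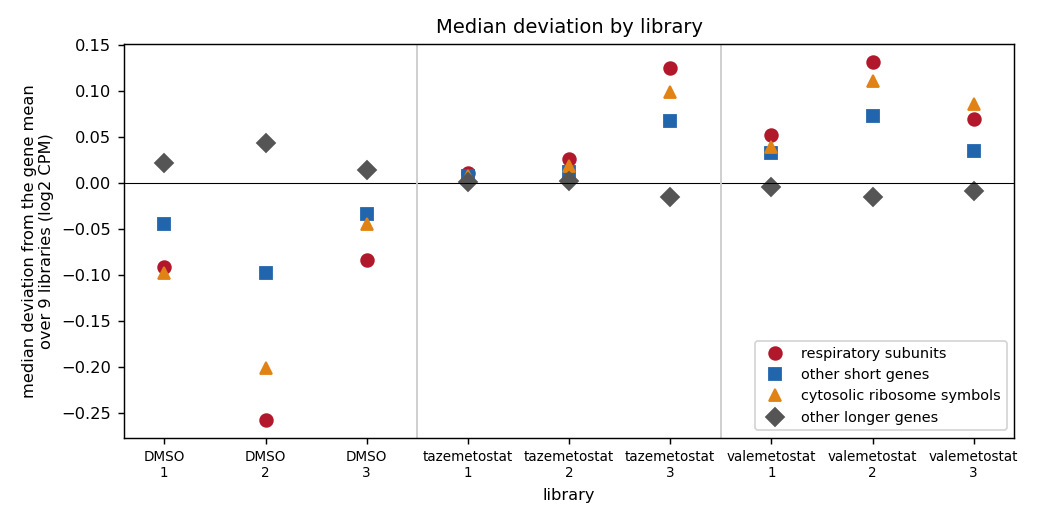
Each symbol is the median, over the genes of 1 set, of the deviation from the gene's mean over 9 libraries (log2 CPM), for subunit genes (red circles), other short genes (blue squares), genes with cytosolic ribosome symbols (orange triangles) and longer genes (grey diamonds). The subunit genes range from -0.26 in DMSO 2 to 0.13 in valemetostat 2, and the longer genes stay within 0.04 of 0.

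Complex I, the NADH dehydrogenase, had 18 of 37 genes higher with tazemetostat and 27 with valemetostat, with median log2 fold changes of 0.15 and 0.20. On the counts 19.9% and 20.5% of all genes tested were called higher, which is the background for each complex below. Of its 7 nuclear core subunits, which hold the flavin and the iron-sulfur clusters, 2 and 4 were higher, and of the 30 accessory genes 16 and 23. The median log2 fold change was 0.10 and 0.14 for the core and 0.20 and 0.23 for the accessory genes, whose median lengths were 1623 and 748 nt. With the length and GC offset these medians were 0.02 and 0.05 for the core and 0.04 and 0.08 for the accessory genes. In that fit 5 of the 37 genes were called higher with tazemetostat and 7 with valemetostat, and 0 of the core genes with either. The shares of all genes tested called higher there were 19.3% and 19.0%.

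Ndufs4 (ENSMUSG00000021764), an accessory subunit needed for a stable complex I, had the smallest p of the complex. It stood at 41.9, 38.5 and 43.3 CPM with DMSO, 50.6, 50.9 and 58.5 with tazemetostat, and 52.1, 53.7 and 56.3 with valemetostat. The DMSO libraries lay below those of both compounds, which overlapped each other, and the log2 fold change was 0.37 ± 0.067 with tazemetostat (SE; adjusted p = 9.13e-05, edgeR) and 0.39 ± 0.067 with valemetostat (adjusted p = 4.62e-05, edgeR). Its transcript of 1698 nt is longer than most of the others, and with the offset the values were 0.28 and 0.29 (adjusted p = 0.000504 and 0.000327, edgeR). Ndufv3, a small subunit of the NADH-oxidising module, rose by 0.24 ± 0.06 and 0.31 ± 0.06 on the log2 scale (adjusted p = 0.00281 and 0.000177, edgeR). With the offset Ndufv3 was called at 0.175 and 0.238 (adjusted p = 0.013 and 0.00113, edgeR), but its annotated length is uncertain, as given above. With length taken from the counts per TPM it was not called, at 0.064 and 0.113 (adjusted p = 0.345 and 0.0823, edgeR). Nor was it on TPM, at 0.186 and 0.292 (adjusted p = 0.196 and 0.0543, limma). Ndufb7, a membrane arm subunit, stood at 56.7, 48 and 55.3 CPM with DMSO, 67.3, 62.5 and 70.2 with tazemetostat, and 63.5, 66.5 and 64.7 with valemetostat. Every treated library lay above every DMSO library, with log2 fold changes of 0.32 ± 0.063 and 0.28 ± 0.064 (adjusted p = 0.000258 and 0.00092, edgeR). With the offset the valemetostat difference of Ndufb7 no longer passed, at 0.12 (adjusted p = 0.0701, edgeR).

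The most abundant transcript of complex I per length behaved otherwise. Ndufb8 stood at 143, 131 and 137 CPM with DMSO, 138, 139 and 155 with tazemetostat, and 149.8, 156 and 154 with valemetostat. The tazemetostat and DMSO libraries overlapped (log2 fold change 0.07 ± 0.05, adjusted p = 0.299, edgeR), while all valemetostat libraries were above DMSO (0.16 ± 0.05, adjusted p = 0.0125, edgeR). After the offset its log2 fold change was -0.08 and -0.01, neither of which passed. Ndufb4c, which the annotation gives as a processed pseudogene, held 85.4% of the summed TPM of Ndufb4 and Ndufb4c in the DMSO libraries. Reads may be split between these rows, and their separate values are uncertain. Ndufb1 is likewise given there as a noncoding RNA at a shared promoter. The complex I genes called with neither compound were Ndufa13, Ndufa2, Ndufa9, Ndufb2, Ndufb6, Ndufs1, Ndufs3, Ndufs6 and Ndufv1, with log2 fold changes of 0.025 (Ndufb2) to 0.15 (Ndufb6) with tazemetostat. The core subunits among them were Ndufs1, Ndufs3 and Ndufv1.

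Complex II, succinate dehydrogenase, which also belongs to the citric acid cycle, had 2 of 4 genes higher with tazemetostat and 3 with valemetostat. Sdhc stood at 102, 101 and 106 CPM with DMSO, 110.4, 116 and 123 with tazemetostat, and 121, 119 and 119 with valemetostat. The DMSO libraries lay below all treated libraries, and the valemetostat libraries lay within the tazemetostat range. The log2 fold changes were 0.17 ± 0.049 and 0.22 ± 0.049 (adjusted p = 0.00588 and 0.000861, edgeR). Sdhc was the one complex II gene also called with the length and GC offset, at 0.16 and 0.20 (adjusted p = 0.0041 and 0.000495, edgeR). Its annotated length is uncertain, as given above. With length taken from the counts per TPM it was at 0.09 and 0.12 (adjusted p = 0.0746 and 0.0192, edgeR), so only the valemetostat call held. On TPM it was not called, at 0.13 and 0.11 (adjusted p = 0.219 and 0.31, limma). Sdhd, the other anchor subunit, whose promoter window holds both the NRF1 and the ETS letters, had log2 fold changes of 0.16 ± 0.051 and 0.18 ± 0.051 (adjusted p = 0.0133 and 0.0056, edgeR), which the offset reduced to 0.04 with each compound (adjusted p = 0.42 and 0.419, edgeR). Sdhb, the iron-sulfur subunit, passed with valemetostat only, at 0.14 ± 0.054 (adjusted p = 0.044, edgeR), a call that held in 2 of 6 fits with a library left out, and Sdha, the flavoprotein, with neither, at 0.05 ± 0.044 and 0.07 ± 0.044 (adjusted p = 0.361 and 0.198, edgeR).

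Complex III, the cytochrome bc1 complex, had 6 of 9 genes higher with each compound. With the offset 1 of the 9 was called higher with tazemetostat and 2 with valemetostat, where 19.3% and 19.0% of all genes were. Uqcrh (ENSMUSG00000063882), the hinge protein that helps to bind cytochrome c, had the smallest p of the complex. It was at 82.9, 72.1 and 84.6 CPM with DMSO, 104, 104.5 and 114 with tazemetostat, and 101, 108 and 108 with valemetostat. The lowest treated library was above the highest DMSO library, with log2 fold changes of 0.43 ± 0.058 (adjusted p = 2e-06, edgeR) and 0.40 ± 0.058 (adjusted p = 4.6e-06, edgeR). With the offset they were 0.24 and 0.19 (adjusted p = 4.78e-05 and 0.00068, edgeR). Uqcrb, a small subunit near the ubiquinone site, rose by 0.30 ± 0.06 and 0.31 ± 0.061 on the log2 scale (adjusted p = 0.000259 and 0.000189, edgeR), which the offset reduced to 0.11 and 0.10 (adjusted p = 0.0626 and 0.0846, edgeR). Cyc1, cytochrome c1, had 0.15 ± 0.048 and 0.22 ± 0.049 (adjusted p = 0.0137 and 0.000627, edgeR), and with the offset 0.09 and 0.13 (adjusted p = 0.0609 and 0.0044, edgeR). Uqcr10 and Uqcrfs1, the genes of highest and lowest TPM in the complex, had 0.23 ± 0.063 and 0.12 ± 0.046 with tazemetostat, and 0.05 and 0.01 with the offset, which ended both calls. The genes called with neither were Uqcrc1, Uqcrq and Uqcr11, the first a core protein without a redox group. Uqcrq turned to lower where length was taken from the counts per TPM, at -0.14 with each compound (adjusted p = 0.0147 and 0.0117, edgeR), and was not called with the other offset.

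Complex IV, cytochrome c oxidase, had 10 of 14 genes higher with each compound and the highest complex medians on counts, 0.24 with tazemetostat and 0.25 with valemetostat. Its genes were also the shortest, with a median length of 652 nt, and with the offset the medians were 0.08 and 0.06. The counts with the offset were 3 higher and 2 lower with tazemetostat and 4 higher and 1 lower with valemetostat, of 14 genes, where 19.3% and 19.2%, and 19.0% and 19.6%, of all genes were so called. Cox7c (ENSMUSG00000017778), a small subunit present in all tissues, stood at 95.1, 75 and 85.6 CPM with DMSO, 118, 117.5 and 130.5 with tazemetostat, and 117, 122 and 126.5 with valemetostat. All 6 treated libraries lay well above the 3 DMSO libraries, with a log2 fold change of 0.52 ± 0.067 with each compound (adjusted p = 3.48e-06 and 3.24e-06, edgeR), which corresponds to 42.9% and 43.0% more. With the offset Cox7c kept 0.32 and 0.30 (adjusted p = 9.34e-06 and 2.15e-05, edgeR), and its promoter window, printed above, holds none of the NRF1 or ETS letters.

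Cox7a2, the broadly expressed form of subunit 7a, stood at 103, 86.4 and 103 CPM with DMSO, 121.5, 125 and 135 with tazemetostat, and 118, 128 and 121 with valemetostat. The DMSO libraries lay below both treated groups, which overlapped each other (log2 fold changes 0.38 ± 0.06 and 0.33 ± 0.06, adjusted p = 1.77e-05 and 0.000114, edgeR). Cox6c had 111, 109.9 and 134 CPM with DMSO, 144, 152 and 153 with tazemetostat, and 150, 150.5 and 149 with valemetostat. DMSO 3 was closest to the treated libraries but still below them, with log2 fold changes of 0.34 ± 0.058 with each compound (adjusted p = 5.76e-05 and 5.04e-05, edgeR). Ndufa4 rose by 0.28 ± 0.06 and 0.29 ± 0.061 on the log2 scale (adjusted p = 0.000666 and 0.000551, edgeR), and with the offset it was at 0.10 and 0.08 and not called.

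Cox4i1, which forms a large regulatory subunit of the oxidase and had its highest TPM, did not pass in this fit. It stood at 417, 395 and 424.5 CPM with DMSO, 403, 409 and 448 with tazemetostat, and 421, 444 and 427.5 with valemetostat, and the groups overlapped. Its log2 fold changes were 0.03 ± 0.046 and 0.06 ± 0.046 (adjusted p = 0.687 and 0.295, edgeR). With the offset Cox4i1 was called lower, at -0.10 and -0.09 (adjusted p = 0.0211 and 0.0319, edgeR), and on TPM it was not called, at -0.07 and -0.04 (adjusted p = 0.175 and 0.421, limma). Cox7a2l was called lower with the offset for tazemetostat, at -0.10 (adjusted p = 0.0483, edgeR), and not for valemetostat, at -0.03 (adjusted p = 0.516, edgeR). Within complex IV, then, the direction for Cox4i1 and Cox7a2l turned with the offset, while Cox7c, Cox7a2 and Cox6c stayed higher.

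The tissue-restricted forms of complex IV subunits were minor here. Cox6a2, the heart and muscle form of subunit 6a, made up 3.07 ± 0.146% of the summed TPM of Cox6a1 and Cox6a2 with DMSO, 3.34 ± 0.126% with tazemetostat and 3.62 ± 0.00999% with valemetostat. It stood at 9.15, 8.53 and 8.83 CPM with DMSO, 10.2, 10.6 and 11.4 with tazemetostat, and 11.2, 12.8 and 12.2 with valemetostat. The treated libraries lay above DMSO, with log2 fold changes of 0.28 ± 0.109 and 0.45 ± 0.109 (adjusted p = 0.0456 and 0.00167, edgeR). The tazemetostat call held in 3 of 10 other settings and in 0 of 6 fits with a library left out, and with the offset it was 0.12 (adjusted p = 0.404, edgeR), while the valemetostat call held in all of them. Cox7a1 made up 3.8 ± 1.06%, 4.54 ± 0.913% and 5.52 ± 1.21% of the summed TPM of Cox7a1 and Cox7a2. Its libraries were uneven at this depth, with 1.14, 0.783 and 1.54 CPM with DMSO, 1.83, 2.28 and 1.46 with tazemetostat, and 1.66, 2.75 and 2.3 with valemetostat. The tazemetostat and DMSO libraries overlapped (0.69 ± 0.31, adjusted p = 0.0842, edgeR), and the valemetostat libraries did not (0.95 ± 0.31, adjusted p = 0.0166, edgeR). With the offset neither difference of Cox7a1 passed (adjusted p = 0.201 and 0.0589, edgeR).

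**Figure D4:**
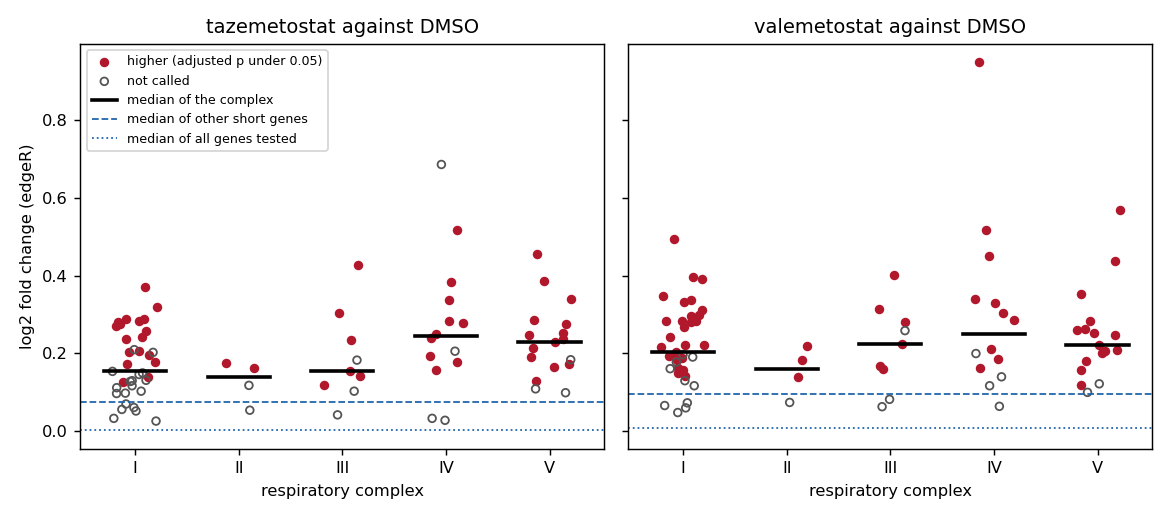
Each point is the log2 fold change of 1 subunit gene against DMSO (edgeR, counts), grouped by respiratory complex, filled where called higher at adjusted p under 0.05, with black bars for the median of each complex and blue lines for other short genes (dashed) and all genes tested (dotted). All 81 points lie above 0 in this fit with each compound, and each complex median lies above both blue lines.

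Complex V, the ATP synthase, had 14 of 17 genes higher with tazemetostat and 15 with valemetostat, with medians of 0.23 and 0.22. With the offset 7 of the 17 genes were called higher with each compound, and the medians were 0.11 and 0.09. In that fit 19.3% and 19.0% of all genes were called higher. The F1 part, which holds the catalytic sites, had 3 and 4 of its 5 genes higher, the membrane c ring 3 of 3 with each compound, the peripheral stalk 4 of 4 with each, and the other small subunits 4 of 5 with each. On the counts 19.9% and 20.5% of all genes were higher. With the offset F1 had 2 and 2 genes higher, the c ring 1 and 2, the stalk 2 and 1, and the other small subunits 2 and 2. The abundant Atp5b and Atp5a1, which form the ring of the head, had log2 fold changes of 0.13 ± 0.042 and 0.17 ± 0.042 with tazemetostat and 0.12 ± 0.042 and 0.18 ± 0.042 with valemetostat. Atp5a1 kept its calls with the offset, at 0.13 with each compound (adjusted p = 0.00118 and 0.00125, edgeR). Atp5b did not, at 0.06 and 0.04 (adjusted p = 0.11 and 0.355, edgeR), and on TPM its log2 fold change was -0.02 and -0.09, neither of which passed.

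Atp5d (ENSMUSG00000003072), the delta subunit of the central stalk, stood at 243, 210.5 and 223 CPM with DMSO, 260.4, 269 and 295 with tazemetostat, and 265.5, 286.5 and 271 with valemetostat. Every treated library was above every DMSO library, with a log2 fold change of 0.28 ± 0.053 with each compound (adjusted p = 0.000137 and 0.000144, edgeR), and of 0.22 and 0.19 with the offset. Of the c ring genes, which encode the same mature protein, Atp5g3 stood at 248, 212 and 218.5 CPM with DMSO, 277, 271 and 311 with tazemetostat, and 280.0, 307 and 280.3 with valemetostat. Its log2 fold changes were 0.34 ± 0.059 and 0.35 ± 0.059 (adjusted p = 0.000127 and 7.88e-05, edgeR). Atp5g3 took 34.7 ± 1.58% of the summed c ring TPM with DMSO, 37.1 ± 0.752% with tazemetostat and 36.8 ± 0.638% with valemetostat. Atp5g2 took 40.3 ± 1.06%, 38.0 ± 1.04% and 38.6 ± 1.78%, and Atp5g1 25 ± 1.19%, 24.9 ± 0.317% and 24.6 ± 1.26%.

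Atp5mpl (ENSMUSG00000021290), a small proteolipid of the membrane part, stood at 35.1, 32.1 and 41 CPM with DMSO, 48.2, 51.1 and 49.3 with tazemetostat, and 51.2, 49.9 and 45.5 with valemetostat. The DMSO libraries lay below both treated groups, which overlapped each other, and the log2 fold changes were 0.46 ± 0.074 and 0.44 ± 0.075 (adjusted p = 2.38e-05 and 4.09e-05, edgeR). Atp5o, the stalk subunit that confers oligomycin sensitivity, rose by 0.27 ± 0.05 and 0.26 ± 0.05 on the log2 scale (adjusted p = 9.91e-05 and 0.000174, edgeR), and with the offset only its tazemetostat call held (0.14 and 0.09, adjusted p = 0.0121 and 0.0794, edgeR). Atp5j, coupling factor 6 of the stalk, rose by 0.24 ± 0.06 and 0.21 ± 0.061 (adjusted p = 0.00316 and 0.00867, edgeR), and stood at 0.11 and 0.05 with the offset, not called. Atp5k, the subunit e of the dimer interface and the shortest of all transcripts here at 371 nt, had 0.39 ± 0.127 and 0.57 ± 0.127 (adjusted p = 0.0292 and 0.00319, edgeR), and with the offset 0.19 and 0.35 (adjusted p = 0.112 and 0.00468, edgeR). With tazemetostat the Atp5k libraries overlapped those of DMSO.

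Of the 81 genes, 8 were called higher with both compounds in every fit that was run, the length offsets, the TPM test and each left-out library included. That is 9.88%, beside 6.75% of all genes tested, 8.53% of the other short genes and 10.3% of those of like level, so the count is near the background and is no result about the family. They were Ndufs4 of complex I, Uqcrh of complex III, Cox6c, Cox7a2 and Cox7c of complex IV, and Atp5d, Atp5g3 and Atp5mpl of complex V. None was a gene of complex II. Their log2 fold changes ran from 0.28 to 0.52 with each compound.

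**Figure D5:**
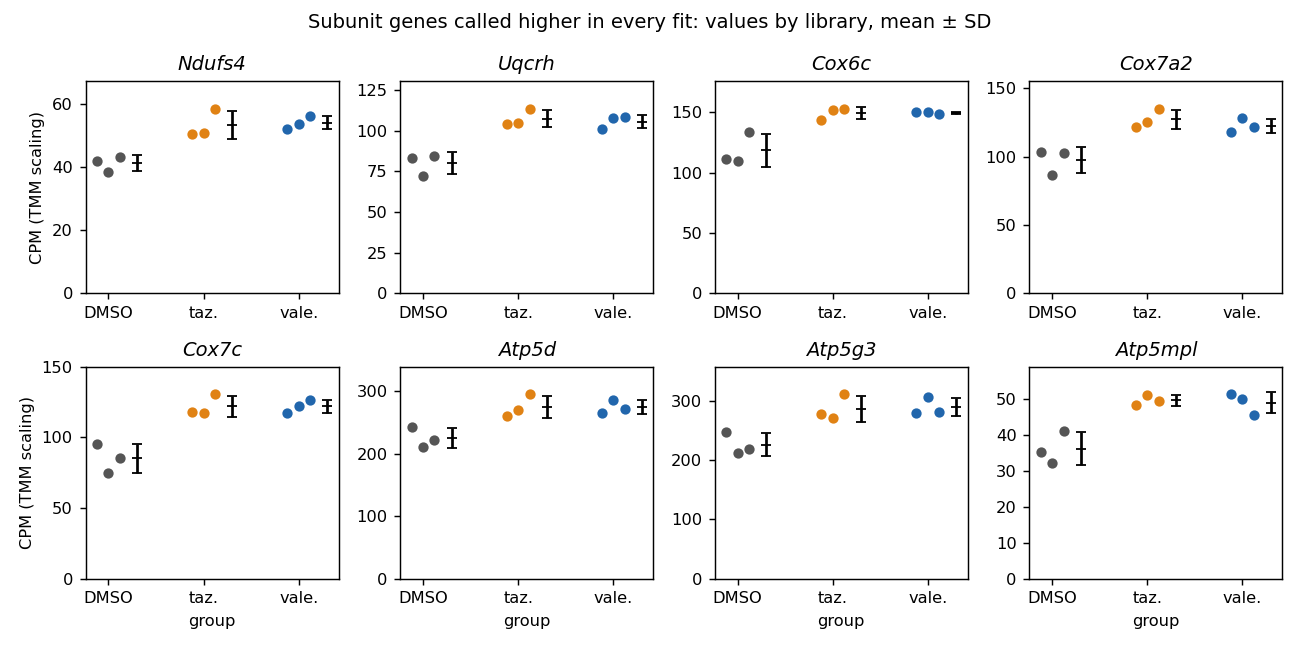
Each panel shows 1 of the 8 genes called higher in every fit, with CPM (TMM scaling) on an axis from 0, a point for each library of DMSO, tazemetostat (taz.) and valemetostat (vale.), and mean ± SD beside the points. In each panel the 6 treated libraries lie above the 3 DMSO libraries, as for Cox7c at 75 to 95.1 with DMSO and 117 to 130.5 with the compounds.

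Valemetostat was compared directly with tazemetostat. No subunit gene was called in either direction (0 of 81 by edgeR, by DESeq2 and by limma), where 0.0636% of all genes tested were called higher and 0.254% lower by edgeR, and 2 genes had an unadjusted p under 0.05. The median log2 difference was 0.02. The smallest p belonged to Ndufa1, an accessory subunit encoded on the X chromosome. It stood at 28, 20.5 and 21.8 CPM with DMSO, 26.9, 27.6 and 30.7 with tazemetostat, and 31, 35.7 and 32.8 with valemetostat. The valemetostat libraries lay just above the tazemetostat libraries, with a log2 difference of 0.23 ± 0.094, a 95% interval of 0.03 to 0.42 and an adjusted p = 0.539 (edgeR). Ndufb11, the other with an unadjusted p under 0.05, differed by 0.14 ± 0.062, with an interval of 0.01 to 0.27. Cox7b differed in the other direction, by -0.10 ± 0.058, with an interval of -0.22 to 0.02. For 80 of the 81 genes the interval of the difference lay within 0.5 log2 units of 0, and its median half-width was 0.12. The exception was Cox7a1, with an interval of -0.35 to 0.88. The 3 valemetostat libraries all lay above the tazemetostat libraries in 3 genes and below in 1 gene, where 6.97% and 7.12% of all genes did so. The 13 genes called with valemetostat and not with tazemetostat are therefore not shown to differ between the compounds.

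Genes whose products assemble the complexes were called in both directions. Of 49 such genes 10.2% were higher and 8.16% lower with tazemetostat, and 16.3% and 2.04% with valemetostat, shares below the 19.9% and 18.2%, and 20.5% and 18.7%, of all genes tested. Of 15 complex I assembly genes 1 was higher with tazemetostat (Acad9, 0.33 ± 0.051) and 1 lower (Tmem186, -0.26 ± 0.088), and 3 and 0 with valemetostat. Of 4 complex II assembly genes 1 was higher with each compound (Sdhaf4, with log2 fold changes of 1.06 ± 0.194 and 0.88 ± 0.195, adjusted p = 0.000115 and 0.000861, edgeR). With tazemetostat 1 gene was lower in each of the lists for complexes I to IV, and with valemetostat 1 gene was lower, of complex IV. The counts were 1 and 2 higher of 6 for complex III, 2 and 2 higher of 21 for complex IV, where Cox16 had 0.38 ± 0.081 and 0.26 ± 0.082, and 0 of 3 for complex V. The medians of these lists ran from -0.08 to 0.11 with tazemetostat. Among 16 electron carriers and feeders of the chain, 5 were higher with tazemetostat and 3 with valemetostat, and 0 lower. With the offset 4 were higher and 4 lower with tazemetostat, and 4 and 3 with valemetostat. The first by p was Cycs, cytochrome c itself, with log2 fold changes of 0.53 ± 0.054 and 0.58 ± 0.054 (adjusted p = 1.69e-08 and 4.33e-09, edgeR) and of 0.51 with tazemetostat after the offset. Coq7, an enzyme of ubiquinone synthesis, had 0.51 ± 0.07 and 0.41 ± 0.07.

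The carriers that supply the ATP synthase with phosphate and ADP, Slc25a3, Slc25a4 and Slc25a5, were higher in 3 of 3 cases with tazemetostat and 2 with valemetostat. Of 17 citric acid cycle genes 8 were higher and 2 lower with tazemetostat, and 10 and 2 with valemetostat, and with the offset 3 were higher and 2 lower with each compound. Ogdh, a subunit of the oxoglutarate dehydrogenase complex, rose by 0.19 ± 0.04 and 0.16 ± 0.04 on the log2 scale, and Dld, its shared lipoamide dehydrogenase, had -0.22 ± 0.045 and -0.17 ± 0.045. Of 15 nuclear regulators of respiratory genes tested, 1 was higher and 3 were lower with each compound, which is near the background share of lower genes given above. With the offset the counts were 1 and 3 with tazemetostat and 2 and 2 with valemetostat. Hif1a, the oxygen-sensing factor, had 0.18 ± 0.045 with each, Myc had -0.28 ± 0.042 and -0.20 ± 0.042, Gabpb2, a partner of GABP, had -0.39 ± 0.067 and -0.46 ± 0.067, and Pprc1, a coactivator, had -0.21 ± 0.05 and -0.17 ± 0.05. Ndufab1 and Atpif1, a complex I subunit and the inhibitor of the ATP synthase whose symbols fall outside the rule, were higher with both compounds.

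Other families of short transcripts were set beside the subunit genes. Of 99 genes with cytosolic ribosomal protein symbols, of which 9 are S6 kinases, 57 were higher with tazemetostat and 69 with valemetostat, with medians of 0.16 and 0.19. The proteasome core had 10 and 12 of 17 genes higher with medians of 0.15 and 0.19, the mitochondrial ribosome 19 and 18 of 78 with 0.09 and 0.09, and the Sm and LSm proteins of RNA processing 5 and 4 of 15 with 0.08 and 0.12. With the length and GC offset the medians of the ribosomal symbols were 0.02 and 0.04 and those of the proteasome 0.03 and 0.04. They were 0.06 and 0.08 for the respiratory subunits and -0.02 for other short genes with each compound. In that fit 29.4% and 35.3% of proteasome genes were called higher, against 21.0% and 25.9% of the subunit genes. With length taken from the counts per TPM the proteasome medians were 0.052 and 0.051 and the subunit medians 0.047 and 0.062. Whether these sets differ from the respiratory subunits was not tested.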

How the data were processed

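The authors deposited whole-number counts per gene for 9 libraries and a second table of log2 values, which the file's values show to be log2(TPM + 1). TPM were recovered from these deposited log2 values. The submitters' processing notes name build mm9, while aligner, counter and annotation were not given in the sources used here. Counts were scaled by TMM and tested with edgeR 4.0.16 (R 4.3.3), robust quasi-likelihood, all 3 groups in 1 fit, filterByExpr (minimum count 10, minimum total 15), with Benjamini-Hochberg adjustment over 12580 genes and a threshold of 0.05. SE is the log2 fold change divided by the root of F, and log counts used a prior count of 2. All 81 subunit genes passed the filter. Alternatives were DESeq2 1.42.0, limma 3.58.1 (limma-trend) on log2(TPM + 1), other scalings and filters, a replicate block, spline offsets on length and GC (5 degrees of freedom), and leaving out each library. The splines were fitted on genes with a mean log2 CPM of at least 3, subunit genes included. Transcript lengths came from a GRCm38 annotation. The fit was tested on simulated data. Replicates of a group differed by more than sampling noise (chi-square per degree of freedom 5.28 to 13.7), so none was counted as a duplicate. The members and gene lists were chosen with earlier results of these data known. Genes named with values were, per complex, up to 3 with the smallest p against DMSO, the highest and lowest TPM, up to 6 with the smallest p between the compounds, any called against its complex, isoforms, and up to 3 per other list. Ndufa4, Ndufb4c, Atp5a1, Atp5d, Atp5g1, Atp5g2, Atp5k, Sdha, Hif1a and the subunit genes named only for missing the threshold were added after their values were seen. Intervals are 95%.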

Additional observations from a re-analysis of the deposited data

How the results depend on the processing

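The subunit counts kept their direction and stayed within 1.5 times with DESeq2, other size factors, library totals, other filters and fits of only 2 groups, and the counts between the compounds were 0 in every alternative. They moved on TPM, where the test and scaling also differ, and with the length offsets. Higher calls were 19 and 21 (tazemetostat, valemetostat) on log2(TPM + 1), 17 and 21 with the length and GC offset, and 19 and 18 when length was taken from the counts per TPM, an alternative chosen after seeing the data. Lower calls were 2 and 1 with the first offset and 2 and 2 with the second. Median log2 fold changes were 0.086 and 0.108 on TPM, 0.062 and 0.075 with the first offset, and 0.047 and 0.062 with the second. Leaving out 1 library gave 30 (without DMSO 2) to 56 higher calls with tazemetostat and 44 to 66 with valemetostat. Same-numbered libraries deviated together with r of only -0.24 to 0.20, so the numbers were not taken as pairs. With the replicate block 50 and 58 genes were higher, and of the named genes only Uqcrfs1 (adjusted p = 0.0663) and Cox6a2 (adjusted p = 0.0623) with tazemetostat and Sdhb (adjusted p = 0.051) with valemetostat lost their edgeR calls. Log2 fold changes were above 0 for 68 and 71 of the 81 genes on TPM, 67 and 67 with the first offset and 63 and 63 with the second. Those that turned were mostly not called, but Cox4i1 was called lower with both offsets, Cox7a2l with the first (tazemetostat) and Uqcrq with the second (-0.138 and -0.143). Others named in the text for their values or for missing the threshold turned too, among them Sdha (-0.055 and -0.047), Uqcrq (-0.089 and -0.034), Ndufs3 (-0.058 and -0.041), Ndufb2 (-0.048 and -0.026), Ndufa9 (-0.031 and -0.014) and Ndufv1 (-0.03 and -0.045) with both compounds on TPM. Of the genes named by the rule, those that turned with tazemetostat on TPM were Ndufb8 (-0.029), Cox4i1 (-0.07), Atp5b (-0.024) and Cox7a2l (-0.052). With the length and GC offset they were Ndufb8 (-0.078), Cox4i1 (-0.099), Ndufb11 (-0.008) and Cox7a2l (-0.096), and with the second offset Ndufb8 (-0.079), Cox4i1 (-0.103), Ndufb11 (-0.002), Ndufb1 (-0.016) and Cox7a2l (-0.084). Without DMSO 2 they were Cox4i1 (-0.005), Ndufb1 (-0.007) and Cox7a2l (-0.026). Cox4i1 stood at -0.013 without tazemetostat 3 and at 0 with library totals. With valemetostat they were Cox4i1 (-0.041) and Atp5b (-0.094) on TPM, Ndufb8 (-0.014), Cox4i1 (-0.092), Cox7b (-0.017) and Cox7a2l (-0.034) with the first offset, and Ndufb8 (-0.018), Cox4i1 (-0.099), Atp5b (-0.025) and Cox7a2l (-0.022) with the second. With each tazemetostat comparison library left out in turn, Cox4i1 ran from -0.013 to 0.055, Ndufb1 from -0.007 to 0.208 and Cox7a2l from -0.026 to 0.068. The offsets take out a fitted trend with length and GC, while on TPM a difference between short and longer genes remained. The cause was not tested.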
